A study of Homo sapiens with 12 samples.

Results

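The comparison described here is between PC9 cells of a TDP1 knockout line, KO2, and TDP1 wild-type PC9 cells, both without drug. It uses 6 of the 12 libraries of the study, 3 for each genotype, chosen by the genotype and treatment in their labels. PC9 is a human lung adenocarcinoma line that depends on a mutant EGFR, and the cells used came from one subclone of it. For each group, the cells of 1 flask were split into 3 cultures that were then grown apart, so the spread between libraries is a spread between sister cultures. The other 6 libraries came from wild-type cells kept in 1 µM erlotinib, an inhibitor of the EGFR kinase, either for 7 days, called DTC for drug-tolerant cells in the labels, or for 28 days, called DTEC for their expanded form. They enter the fit that estimates the spread of each gene, and their levels are given beside those of KO2 for the genes described last. Polyadenylated RNA was sequenced in pairs of 101 bases, and the labels assign all 12 libraries to 1 batch.

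TDP1 (tyrosyl-DNA phosphodiesterase 1) cuts the bond between a trapped topoisomerase I (TOP1) and the 3′ end of the DNA strand it has nicked. TOP1 relaxes supercoils ahead of polymerases by passing through a short-lived covalent complex with DNA, and complexes that persist are removed by proteolysis of the protein and excision of the remnant by TDP1, with nucleases as an alternative route. The broken strand is then sealed by the single-strand break repair proteins, among them PARP1, XRCC1 and LIG3. The comparison addresses which transcripts differ when TDP1 is inactivated and no drug is present. Only 1 knockout line was sequenced, and loss of TDP1 and any other property of that line cannot be told apart in these data. How the line was made and which exon was edited are not given in the sources used here.

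Library totals ran from 32664521 to 38219562 estimated counts in wild type and from 29959579 to 38373679 in KO2. A count of 1 or more was found for 21252 ± 284 genes in wild type and 21285 ± 486 in KO2 (SD, n = 3, two-sided exact permutation p = 1). Mitochondrial transcripts took 2.60% ± 0.147 and 2.72% ± 0.112 of the counts (exact permutation p = 0.2). The 50 genes with the most counts in each library took 14.3% ± 0.230 in wild type and 13.9% ± 0.0932 in KO2 (exact permutation p = 0.1). The smallest p that 3 libraries against 3 can give is 0.1. Wild-type replicate 1 stood apart from its group. Of 9524 genes with a mean of at least 10 CPM (counts scaled to a common normalised library total), 225 differed by 1.5-fold or more in that library from the mean of the other 2 wild-type libraries, against 44 and 7 genes for wild-type replicates 2 and 3 and 6 to 10 genes for the KO2 libraries. The results below are therefore also given without that library where its removal changed them. Summed epithelial carcinoma markers were at 9809 to 10499 CPM in wild type and 11075 to 11780 CPM in KO2. The leukocyte genes PTPRC, CD3E and MS4A1, the endothelial genes KDR and CLDN5, the fibroblast genes COL1A2, COL3A1, DCN and LUM, the neuroendocrine genes CHGA and INSM1, and all 4 erythroid genes examined had 3 counts or fewer in each of the 6 libraries. Summed over each whole list, the 7 leukocyte genes were at 24.5 to 30.2 CPM in wild type and 24.7 to 27.7 CPM in KO2, the 5 endothelial genes at 53.1 to 55.7 and 71.6 to 72.9 CPM, the 6 fibroblast genes at 7.26 to 8.08 and 12.7 to 14.2 CPM, and the 5 neuroendocrine genes at 13.04 to 13.998 and 22.7 to 23.4 CPM. The last 3 sums did not overlap between the groups, and their part in the results below was not tested.

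TDP1 RNA itself (ENSG00000042088, chromosome 14, 89954939 to 90044768, GRCh38) was lower in KO2 but was not lost. It was at 28.1, 25.1 and 25.8 CPM in the wild-type libraries and at 10.1, 11.3 and 10.98 CPM in the KO2 libraries. The 2 groups did not overlap, and the KO2 mean was 41.0% of the wild-type mean. The log2 fold change, KO2 minus wild type, was -1.29 (SE 0.110, edgeR quasi-likelihood test, adjusted p = 1.3e-05), and it lay between -1.32 and -1.21 under all 17 alternative analyses. A count over the whole gene includes exons outside an edited site and does not measure the protein.

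Of 8 other tested genes within 1 Mb of TDP1, 1 was called, meaning an adjusted p under 0.05. This was TTC7B, a scaffold subunit of a phosphatidylinositol 4-kinase complex at the plasma membrane, at 5.53, 4.89 and 5.45 CPM in wild type and 9.48, 9.06 and 10.3 CPM in KO2 (log2 fold change 0.86, SE 0.147, adjusted p = 0.00403). EFCAB11, which starts beside TDP1, was at 7.99 ± 1.44 CPM in wild type and 9.86 ± 0.723 CPM in KO2 (SD, n = 3, edgeR adjusted p = 0.344). PSMC1, a proteasome ATPase subunit, was at 210 ± 28.4 and 179 ± 2.89 CPM (edgeR adjusted p = 0.283). KCNK13, NRDE2, LINC02960 and RPS6KA5 were also not called.

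Among the genes called in the 12-library fit, more were higher than lower in KO2, and most differences were below 2-fold, while 47.9% of all tested genes had a positive log2 fold change. The test covered 17115 genes, and KO2 had 473 calls on the higher side (2.76%) and 265 on the lower side (1.55%). The median log2 fold change was 0.81 among the genes called higher and -0.62 among those called lower, beside -0.01 over all tested genes. At least a 2-fold difference was reached by 165 of the higher and 58 of the lower genes. Protein-coding genes, which were 13667 of the 17115 tested, made up 458 of the higher and 237 of the lower calls. Long noncoding RNAs, 2130 of those tested, made up 12 and 16. In all 738 called genes the 3 KO2 libraries did not overlap the 3 wild-type libraries, which was also true of 35.7% of all tested genes.

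The number of calls depended on which libraries set the spread. The biological coefficient of variation was 14.6% when all 12 libraries were fitted and 8.24% when only the 6 untreated libraries were. The 6-library fit called 1397 genes higher (9.2% of 15183 tested) and 1259 lower (8.29%), and 707 of the 738 genes were among them. Without wild-type replicate 1 the 12-library fit called 321 genes and the 6-library fit 2957, and with 1 of the 6 libraries left out at a time the 12-library fit called 321 to 426. Scaling by total counts alone instead of by TMM, a method that trims extreme genes, moved the part of the calls on the higher side from 64.1% to 78.8%. Unless a fit is named, values below are from the 12-library fit.

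Several of the genes that rose most, among those with a mean of at least 10 CPM, encode secreted or cell-surface proteins. The rule that picked these genes required that the KO2 libraries not overlap the wild-type libraries. DMBT1 (ENSG00000187908, chromosome 10, 122560665 to 122643736), a scavenger receptor cysteine-rich glycoprotein of mucosal surfaces that binds bacteria, was at 3.05, 3.84 and 3.61 CPM in wild type and at 33.1, 33.9 and 34.5 CPM in KO2. Every KO2 library was far above every wild-type library, and the log2 fold change was 3.27 (SE 0.278, edgeR adjusted p = 2.27e-05). RARRES1 (ENSG00000118849, chromosome 3, 158696892 to 158732696), first described as a retinoid-induced transmembrane protein, was at 30.9, 26.5 and 29.7 CPM in wild type and at 159, 160 and 163 CPM in KO2. The KO2 libraries were nearly equal to each other, and the log2 fold change was 2.47 (SE 0.126, edgeR adjusted p = 2.14e-07). GPC4 (ENSG00000076716, chromosome X, 133300103 to 133415490), a glypican that carries heparan sulfate chains on a lipid anchor, was at 6.42, 7.69 and 6.84 CPM in wild type and at 30.01, 29.03 and 26.4 CPM in KO2. Its groups were also fully separate, with a log2 fold change of 2.03 (SE 0.138, edgeR adjusted p = 1.71e-06). S100A8 (ENSG00000143546, chromosome 1, 153390032 to 153391188), a subunit of the antimicrobial protein calprotectin, was at 4.27, 4.32 and 6.09 CPM in wild type and at 16.5, 20.5 and 18.7 CPM in KO2. The lowest KO2 library was above the highest wild-type library (log2 fold change 1.92, SE 0.245, edgeR adjusted p = 0.000578).

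A pair of complement genes was also among the 16 highest. C1S, the protease that cleaves C4 and C2 in the classical pathway, was at 12.2, 9.58 and 12.4 CPM in wild type and 37.3, 34.6 and 35.6 CPM in KO2 (log2 fold change 1.65, SE 0.208, edgeR adjusted p = 0.000562). CFB, factor B of the alternative pathway, was at 8.93, 9.65 and 9.49 CPM and 20.4, 21.1 and 21.5 CPM (log2 fold change 1.16, SE 0.230, edgeR adjusted p = 0.0117). In both genes all KO2 libraries lay above all wild-type libraries, as the rule for picking them required. The edgeR adjusted p of CFB rose to 0.0473 without wild-type replicate 1. The other 10 genes had log2 fold changes from 1.16 to 1.58. They included the transcriptional corepressor TLE2 (1.58), the Nogo receptor homologue RTN4RL1 (1.48), the protocadherin PCDH7 (1.47), the cell-surface mucin MUC20 (1.46), the fibrillar collagen chain COL5A1 (1.32), the sphingosine-1-phosphate phosphatase SGPP2 (1.29) and the aldehyde dehydrogenase ALDH3B2 (1.28). SYNGR1 (1.25), a synaptic vesicle protein, the dynein adaptor BICDL1 (1.17) and the adhesion receptor ADGRB2 (1.16) completed them. The deposited MUC20 values were not whole numbers in any of the 6 libraries, as arises when reads that match several genes are shared out, so its level is less certain.

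**Figure D1:**
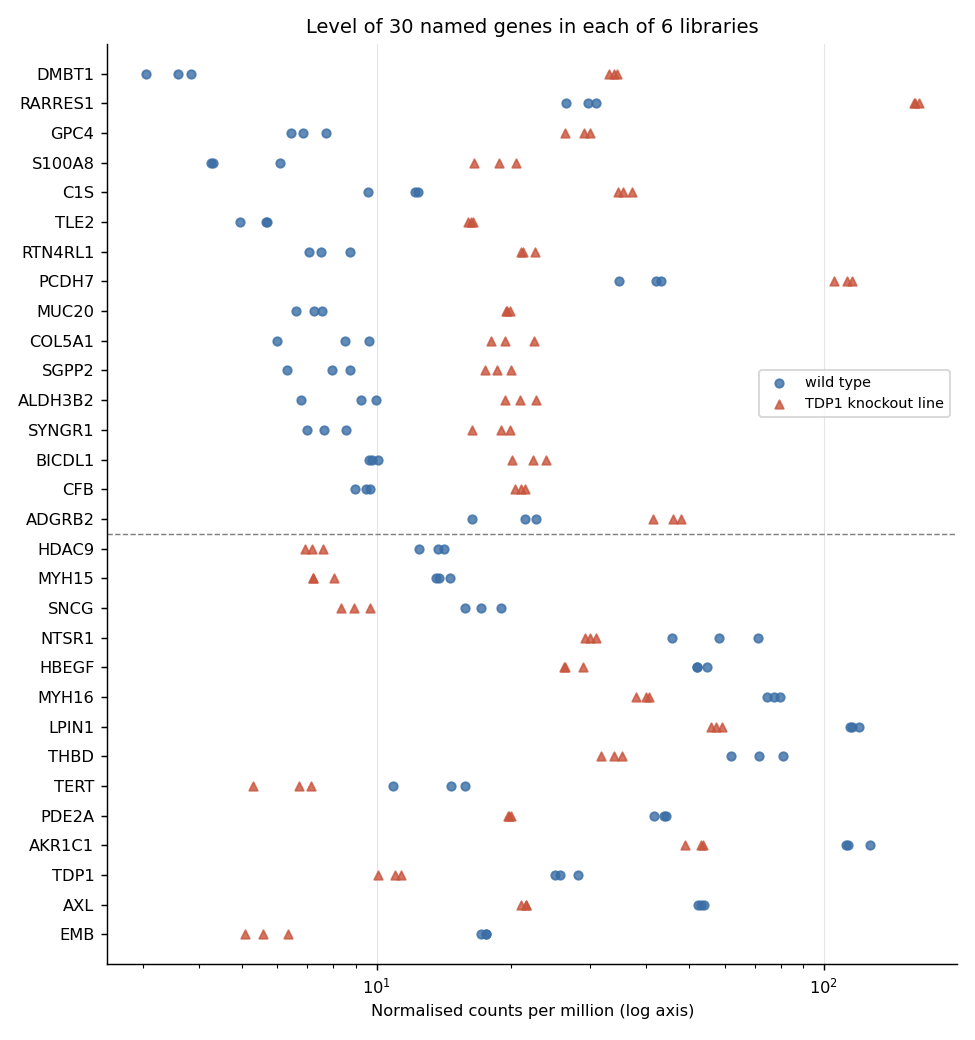
CPM (log axis) of the 16 genes with the largest rise and the 14 with the largest fall in KO2 among called genes with a mean of at least 10 CPM, with 1 point per library, circles for wild type and triangles for KO2. In each gene the 3 triangles lie on one side of the 3 circles, which the rule for picking the genes required. DMBT1 goes from 3.05 to 3.84 CPM in wild type to 33.1 to 34.5 CPM in KO2.

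Among called genes with a mean of at least 10 CPM, the largest fall belonged to EMB (ENSG00000170571, chromosome 5, 50396192 to 50443248), the embigin gene, whose product is a chaperone of monocarboxylate transporters. It was at 17.6, 17.5 and 17.2 CPM in wild type and at 6.35, 5.57 and 5.09 CPM in KO2 (log2 fold change -1.62, SE 0.162, edgeR adjusted p = 5.43e-05). None of its 6 deposited values was a whole number. AXL (ENSG00000167601, chromosome 19, 41219203 to 41261766), a receptor tyrosine kinase known as a bypass route in EGFR inhibitor tolerance, was at 52.3, 53.2 and 53.8 CPM in wild type and at 21.6, 21.0 and 21.6 CPM in KO2. The libraries of each group were within 2 CPM of each other, and the log2 fold change was -1.31 (SE 0.108, edgeR adjusted p = 1e-05). AKR1C1 (ENSG00000187134, chromosome 10, 4963253 to 4983283), an aldo-keto reductase that inactivates progesterone, was at 127, 112 and 113 CPM and at 53.1, 48.8 and 53.8 CPM (log2 fold change -1.18, SE 0.115, edgeR adjusted p = 4.67e-05). AKR1C1 shares near-identical sequence with its neighbours AKR1C2 and AKR1C3, and its deposited values were fractional in all 6 libraries.

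TERT, the catalytic subunit of telomerase, was at 10.9, 15.8 and 14.7 CPM in wild type and at 5.30, 7.12 and 6.72 CPM in KO2 (log2 fold change -1.11, SE 0.217, edgeR adjusted p = 0.0100). All KO2 libraries were below all wild-type libraries, as the rule for picking required. The call was lost without KO2 replicate 1, wild-type replicate 2 or wild-type replicate 3, with adjusted p up to 0.0629. SNCG, gamma-synuclein, was at 17.3 ± 1.61 and 8.95 ± 0.668 CPM (SD, n = 3, edgeR adjusted p = 0.0287) and was not called when any 1 of the 6 libraries was left out (adjusted p up to 0.128). The other lower genes were PDE2A, a cyclic nucleotide phosphodiesterase (log2 fold change -1.13), THBD, the thrombin receptor thrombomodulin (-1.09), LPIN1, a phosphatidate phosphatase (-1.02), the myosin heavy chain pseudogene MYH16 (-0.97), the EGFR ligand HBEGF (-0.96), the neurotensin receptor NTSR1 (-0.96), the myosin heavy chain gene MYH15 (-0.90) and the class IIa histone deacetylase HDAC9 (-0.90). All 30 of these higher and lower genes were called in the 6-library fit, and 28 were called under every alternative, the exceptions being TERT and SNCG.

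Genes were next read by function, with 24 lists that held 510 different tested genes. Of these, 66 were called in the 12-library fit and 166 in the 6-library fit, and 31 were called in the 12-library fit without wild-type replicate 1. The list medians below stand beside a median of -0.01 over all tested genes, of which 47.9% had a positive log2 fold change. The list counts stand beside 2.76% of all tested genes called higher and 1.55% called lower. In the 6-library fit these shares were 9.2% and 8.29%. The lists were chosen with earlier results of these data known, so their counts are a description with no test.

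**Figure D2:**
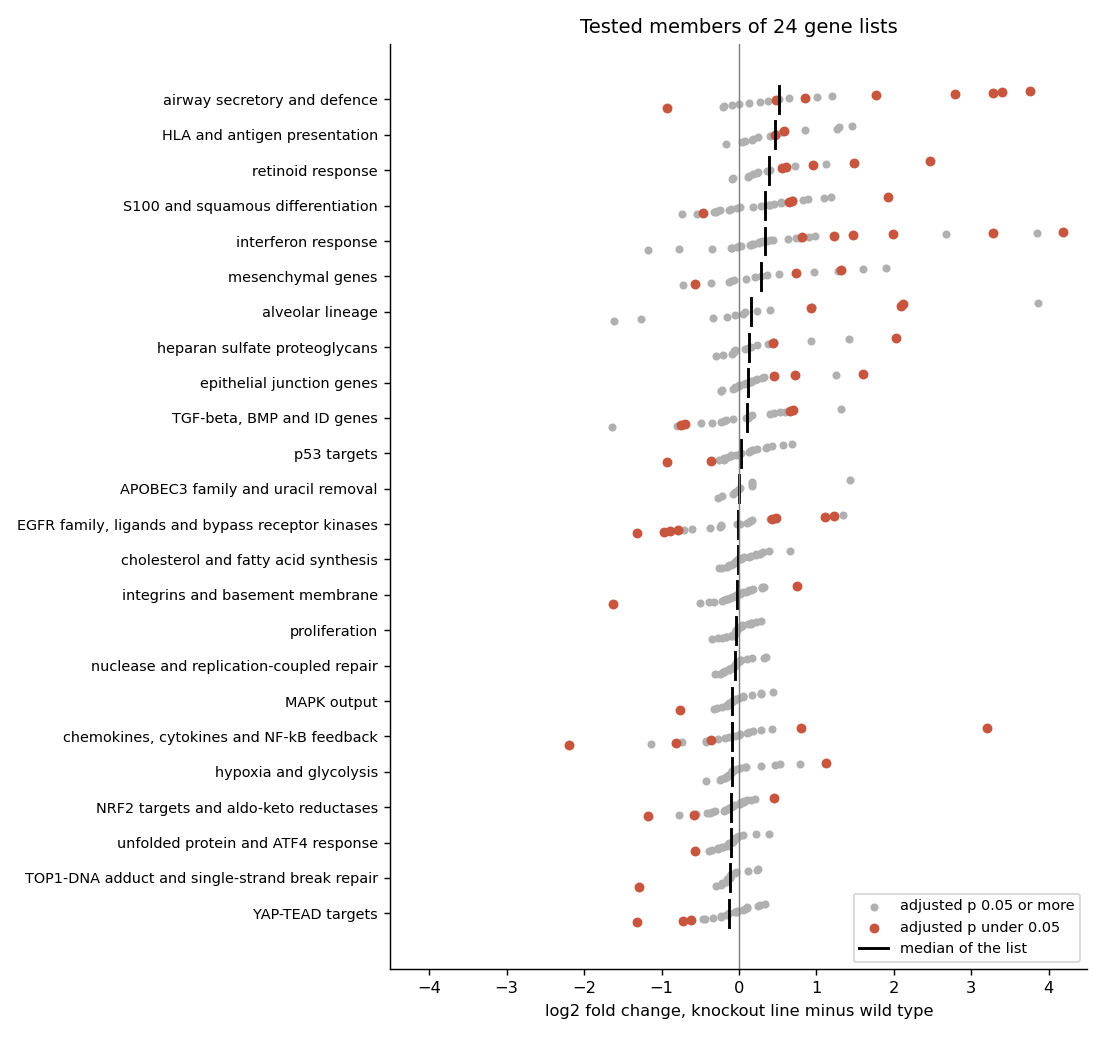
Log2 fold change, KO2 minus wild type, of the tested members of 24 gene lists, with 1 point per gene, red where the adjusted p was under 0.05 and grey otherwise, and a black bar at the list median. The airway secretory list has the highest median (0.51) and the YAP-TEAD list the lowest (-0.12).

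Of 18 genes of TOP1 adduct removal and single-strand break repair, TDP1 was the only one called, and the list median was -0.12 with 3 positive values. TOP1 was at 314 ± 10.8 CPM in wild type and 282 ± 11.5 CPM in KO2 (SD, n = 3, log2 fold change -0.16, edgeR adjusted p = 0.649). TDP2, which acts on topoisomerase II adducts and can act on TOP1 adducts, was at 86.1 ± 7.67 and 77.5 ± 1.52 CPM (edgeR adjusted p = 0.601), and the mitochondrial topoisomerase TOP1MT at 53.9 ± 4.17 and 46.3 ± 0.530 CPM (edgeR adjusted p = 0.315). In the 6-library fit the poly(ADP-ribose) glycohydrolase PARG (63.2 ± 1.39 and 51.6 ± 1.08 CPM, edgeR adjusted p = 0.00624) and the flap endonuclease FEN1 (181 ± 11 and 156 ± 5.71 CPM, edgeR adjusted p = 0.0341) were called lower. Of 25 genes of nuclease and replication-coupled repair, 0 were called, and 4 were in the 6-library fit, namely SLX4, SLX1A and FANCD2 higher and MRE11 lower. MRE11 lies in the chromosome 11 stretch described further on.

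Genes of airway secretion and mucosal defence had the highest median of the 24 lists, 0.51. Of 19 tested, 7 were higher and 1 was lower. BPIFB1 (ENSG00000125999, chromosome 20, 33273480 to 33309878), a secreted lipid-binding protein of airway lining fluid, was at 1.43, 1.96 and 1.27 CPM in wild type and at 15.0, 15.99 and 17.9 CPM in KO2. The groups were fully separate, as in every called gene (log2 fold change 3.40, SE 0.190, edgeR adjusted p = 2.42e-07). Its neighbour and relative BPIFA1 was at 0.149, 0.101 and 0.0288 CPM and at 0.842, 1.42 and 1.604 CPM (log2 fold change 3.75, SE 0.902, edgeR adjusted p = 0.0315), a call lost when any 1 library was left out (adjusted p up to 0.137). Ceruloplasmin (CP), a copper-carrying ferroxidase, was at 0.505 ± 0.116 CPM in wild type and 3.55 ± 0.345 CPM in KO2 (SD, n = 3, log2 fold change 2.79, edgeR adjusted p = 2.27e-05). The mucin MUC1 was at 2.25 ± 0.153 and 7.70 ± 0.531 CPM (SD, n = 3, log2 fold change 1.77, edgeR adjusted p = 4.5e-06). AGR2, a disulfide isomerase of mucin-making cells (0.85), and the siderophore-binding lipocalin LCN2 (0.48) were the other higher members beside DMBT1. AGR2 was not called when any 1 library was left out (adjusted p up to 0.135), and LCN2 was lost in 4 of 6 such fits (adjusted p up to 0.0862). The membrane mucin MUC4 went the other way, from 6.49 ± 0.291 to 3.39 ± 0.390 CPM (log2 fold change -0.93, edgeR adjusted p = 0.0147, and 0.0527 without wild-type replicate 1). MUC4 was lost in 5 of 6 fits without 1 library (edgeR adjusted p up to 0.0855). The secretory leukoprotease inhibitor SLPI was at 143 ± 14.8 and 204 ± 15.1 CPM and passed only in the 6-library fit (edgeR adjusted p = 0.156, and 0.000737 in the 6-library fit).

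Of 14 alveolar lineage genes tested, 3 were higher and 0 lower, with a list median of 0.16. Surfactant protein B (SFTPB) was at 1.25, 2.09 and 1.18 CPM in wild type and at 5.23, 7.25 and 6.66 CPM in KO2 (log2 fold change 2.09, SE 0.260, edgeR adjusted p = 0.000398). HOPX, a homeodomain protein of alveolar type 1 cells, was at 0.222 ± 0.120 and 0.988 ± 0.126 CPM (SD, n = 3, edgeR adjusted p = 0.0131), and LAMP3, a lamellar body membrane protein, at 5.42 ± 0.381 and 10.3 ± 0.160 CPM (SD, n = 3, edgeR adjusted p = 0.0237). LAMP3 was not called when any 1 library was left out (adjusted p up to 0.0996). HOPX was lost without wild-type replicate 2 or 3 (adjusted p up to 0.0652). SFTPA1, SFTPC, SLC34A2, PDPN and FOXA2, which complete the list, had too few counts to be tested.

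Retinoid response genes were higher in 5 of 16 and lower in 0, with a list median of 0.39 and 14 positive values. Beside RARRES1 these were STRA6, the receptor for retinol-binding protein (73.5 ± 5.73 and 112 ± 5.49 CPM, SD, n = 3, log2 fold change 0.61, edgeR adjusted p = 0.00403), the retinol dehydrogenase RDH10 (67.1 ± 5.17 and 98.3 ± 2.23 CPM, 0.55, adjusted p = 0.0352), the retinoic acid hydroxylase CYP26A1 (1.41 ± 0.248 and 2.74 ± 0.477 CPM, 0.95, adjusted p = 0.0222) and the retinoic acid receptor RARB (0.351 ± 0.134 and 1.00 ± 0.106 CPM, 1.48, adjusted p = 0.0247). In each of these 4 the lowest KO2 library was above the highest wild-type library, but the groups were separate in all 738 called genes and in 35.7% of all tested genes. Without wild-type replicate 1 the 12-library fit called 2 of the 5, RARRES1 and STRA6, while the 6-library fit without it called 9. RDH10 was lost when any 1 library was left out (edgeR adjusted p up to 0.119). CYP26A1 and RARB were each lost in 4 of 6 such fits (edgeR adjusted p up to 0.0943 and 0.0844). The receptors RARA and RARG were at 33.8 ± 6.33 and 36.7 ± 0.813 CPM and at 100 ± 3.46 and 95.1 ± 5.43 CPM, and neither was called (edgeR adjusted p = 0.722 and 0.752).

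Of 32 interferon response genes tested, 6 were called higher and 0 lower, with a list median of 0.33 and 25 positive values. OAS1 (ENSG00000089127, chromosome 12, 112906777 to 112933222), which makes the oligoadenylate that activates RNase L, was at 0.747, 0.776 and 0.721 CPM in wild type and at 2.63, 3.33 and 2.96 CPM in KO2 (log2 fold change 1.99, SE 0.251, edgeR adjusted p = 0.00045). OAS3, of the same family and locus, was at 5.26, 6.58 and 5.60 CPM and at 12.04, 15.1 and 13.7 CPM (log2 fold change 1.23, SE 0.144, edgeR adjusted p = 0.000261). The restriction factor IFITM3, which blocks fusion of viral and endosomal membranes, was at 12.5, 12.7 and 11.9 CPM and at 19.9, 23.5 and 21.8 CPM (log2 fold change 0.81, SE 0.128, edgeR adjusted p = 0.00239). In these 3 genes the groups did not overlap, as in every called gene, and the call held with each library left out. BST2, which tethers budding virions, was at 0.758 ± 0.348 and 2.08 ± 0.209 CPM (SD, n = 3, log2 fold change 1.47, edgeR adjusted p = 0.0343, and 0.121 without wild-type replicate 1). BST2 was lost in 5 of 6 fits without 1 library.

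IFITM1 and IFITM2 were at the counting floor of 3 counts per library in wild type. Against that floor, the observed KO2 mean of IFITM1 (0.256 CPM) was 2.77-fold higher and that of IFITM2 (0.233 CPM) 2.52-fold higher. IFITM1 was lost without wild-type replicate 2 or 3 (adjusted p up to 0.0623) and IFITM2 in 4 of 6 such fits (up to 0.0567). Both genes overlap in the annotation. Other members typical of an interferon response did not pass. IFIT1 was at 0.486 ± 0.0864 and 0.545 ± 0.295 CPM (edgeR adjusted p = 0.911) and MX1 at 1.38 ± 0.152 and 1.87 ± 0.179 CPM (adjusted p = 0.305). ISG15, a ubiquitin-like modifier, was at 1.52 ± 0.255 and 2.83 ± 0.377 CPM (adjusted p = 0.230) and was called in the 6-library fit (adjusted p = 0.0114).

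The promoters of the called interferon genes were searched for the element through which interferon is known to act, and those with a match are shown. This is the interferon-stimulated response element (ISRE, searched on both strands as GAAA and GAAA with 2 bases of any kind between them). RefSeq promoters (GRCh38.p14, 250 bases before to 50 bases after the first start listed for a gene) matched 5 of the 6 called genes, and 4 held an ISRE. The OAS1 window had no match to these letters. CFB, among the 16 highest genes, held 1 as well. Matches were also present in other named genes that are not printed, both higher (TAPBP and CYP26A1) and lower (ZNF311). The windows are chr11:313790-314089 (plus strand) for IFITM1, chr12:112938224-112938523 (plus strand) for OAS3, chr19:17405581-17405880 (minus strand) for BST2, chr11:320811-321110 (minus strand) for IFITM3 and chr6:31945845-31946144 (plus strand) for CFB. They are written 5′ to 3′ along the gene's strand, and capitals mark the ISRE matches, which overlap in BST2, and in CFB also 1 match to GGAATG, the TEAD motif.
IFITM1: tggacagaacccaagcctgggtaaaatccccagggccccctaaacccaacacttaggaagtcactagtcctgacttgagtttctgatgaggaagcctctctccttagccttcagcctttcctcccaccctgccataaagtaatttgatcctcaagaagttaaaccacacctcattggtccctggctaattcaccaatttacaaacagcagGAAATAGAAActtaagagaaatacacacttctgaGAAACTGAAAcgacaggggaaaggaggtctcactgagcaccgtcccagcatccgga
OAS3: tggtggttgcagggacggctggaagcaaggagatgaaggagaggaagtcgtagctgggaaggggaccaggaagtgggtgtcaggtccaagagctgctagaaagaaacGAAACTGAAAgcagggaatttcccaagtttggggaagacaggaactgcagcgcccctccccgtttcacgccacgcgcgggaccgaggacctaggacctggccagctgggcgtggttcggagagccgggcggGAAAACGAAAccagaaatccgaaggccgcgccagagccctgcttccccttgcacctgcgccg
BST2: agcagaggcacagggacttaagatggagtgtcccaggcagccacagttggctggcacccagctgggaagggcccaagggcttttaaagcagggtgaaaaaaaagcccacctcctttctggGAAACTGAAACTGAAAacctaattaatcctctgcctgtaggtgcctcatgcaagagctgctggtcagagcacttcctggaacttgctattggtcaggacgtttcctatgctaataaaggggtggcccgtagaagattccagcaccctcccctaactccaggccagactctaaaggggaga
IFITM3: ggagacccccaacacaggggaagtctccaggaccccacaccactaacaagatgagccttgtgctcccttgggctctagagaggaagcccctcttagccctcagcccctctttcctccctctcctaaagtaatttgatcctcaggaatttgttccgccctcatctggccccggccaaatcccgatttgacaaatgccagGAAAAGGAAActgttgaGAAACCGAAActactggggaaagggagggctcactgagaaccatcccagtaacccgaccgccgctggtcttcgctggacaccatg
CFB: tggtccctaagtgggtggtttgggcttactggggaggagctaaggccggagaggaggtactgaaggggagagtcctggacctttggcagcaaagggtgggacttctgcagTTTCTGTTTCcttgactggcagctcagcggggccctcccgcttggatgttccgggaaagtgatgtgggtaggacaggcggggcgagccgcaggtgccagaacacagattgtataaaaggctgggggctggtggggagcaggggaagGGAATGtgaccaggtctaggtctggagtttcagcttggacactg
In IFITM1 the matches began 40 and 6 bases before the start, in OAS3 143 and 12 bases, in IFITM3 52 and 35 bases, in BST2 130 and 124 bases, and in CFB 140 bases before it. The same letters were present in 16 of 24 promoters of tested list members, in 2.81% of 11907 promoters of all tested genes, in 4.40% of 341 promoters of genes called higher and in 1.5% of 200 promoters of genes called lower. The AP-1 letters TGANTCA were in 5.21%, 7.04% and 6.50% of these 3 sets of all, higher and lower genes. A match describes the sequence and does not show that a factor was bound.

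Antigen presentation genes had a median of 0.47, with 14 of 15 tested values positive, but only 2 were called. Of these, TAPBP, tapasin of the peptide-loading complex that readies class I molecules for peptide display to T cells, was at 75.9, 88.5 and 88.5 CPM in wild type and at 117, 118 and 115 CPM in KO2 (log2 fold change 0.47, SE 0.0896, edgeR adjusted p = 0.00871, and 0.0517 without wild-type replicate 1). TAPBP was also lost without KO2 replicate 2 (edgeR adjusted p = 0.0508). HLA-B was at 14.7 ± 0.509 and 35.3 ± 3.13 CPM (SD, n = 3, log2 fold change 1.27), with an edgeR adjusted p of 0.103 in the 12-library fit and 1.32e-06 in the 6-library fit. The 6-library fit called 9 members higher and 0 lower. The HLA genes are near-identical to each other, and their deposited values were fractional. HLA-DRA, HLA-DRB1, HLA-DPA1, HLA-DPB1 and HLA-DQA1 were not tested for lack of counts.

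Cytokine and NF-kB feedback genes changed in both directions, 2 higher and 3 lower of 20. ICAM1, an endothelial and epithelial adhesion molecule, was at 39.0 ± 1.59 and 67.6 ± 2.03 CPM (SD, n = 3, log2 fold change 0.80, edgeR adjusted p = 0.0165, and 0.0729 without wild-type replicate 1). TNF had at most 1 count in a wild-type library and 3, 4 and 5 counts in the KO2 libraries. Its observed KO2 mean was 1.35-fold above a floor of 3 counts per library, without the counting error of that mean. IL1A fell from 0.686 ± 0.277 to 0.148 ± 0.108 CPM (log2 fold change -2.20, edgeR adjusted p = 0.0361) and IL1B from 2.65 ± 0.291 to 1.501 ± 0.276 CPM (-0.81, adjusted p = 0.0306). The gp130 ligand LIF was at 70.0 ± 2.57 and 54.4 ± 1.87 CPM (log2 fold change -0.36, adjusted p = 0.0330). LIF was lost when any 1 library was left out, and the other 4 in 3 to 5 of the 6 such fits (TNF adjusted p up to 0.165, IL1A up to 0.164, IL1B up to 0.153).

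Of 22 tested genes of the EGFR family and the receptor kinases known as bypass routes, 4 were higher, all of them receptors, and 4 lower, the receptor AXL and 3 ligands. EGFR, the kinase that drives this line, was at 1416, 1544 and 1543 CPM in wild type and at 1205, 1142 and 1120.3 CPM in KO2. All KO2 libraries were below all wild-type libraries (log2 fold change -0.38, SE 0.189), but the groups were separate in 35.7% of all tested genes. EGFR was not called in the 12-library fit (edgeR adjusted p = 0.344) and was called in the 6-library fit (0.00103). Its partners ERBB2 (69.3 ± 5.46 and 96.7 ± 3.53 CPM, SD, n = 3, edgeR adjusted p = 0.0260) and ERBB3 (72.4 ± 4.28 and 97.7 ± 3.77 CPM, adjusted p = 0.0346) were called higher. Both calls were lost when any 1 library was left out, with adjusted p up to 0.152 and 0.167. The insulin receptor INSR was at 9.05, 9.14 and 6.89 CPM and at 18.5, 17.7 and 18.1 CPM (log2 fold change 1.12, SE 0.134, edgeR adjusted p = 0.000319), and this call held with each library left out. FGFR3 was at 0.998 ± 0.291 and 2.33 ± 0.481 CPM (SD, n = 3, log2 fold change 1.22, edgeR adjusted p = 0.0201, and 0.0932 without wild-type replicate 1). FGFR3 was lost in 4 of 6 fits without 1 library.

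The lower members were AXL and 3 EGFR ligands. HBEGF, which binds EGFR and ERBB4, was at 54.9, 52.1 and 52.1 CPM and at 26.4, 26.2 and 28.97 CPM (log2 fold change -0.96, SE 0.117, edgeR adjusted p = 0.000325). The groups did not overlap, as in every called gene, and the call held with each library left out. Amphiregulin (AREG, 2.35 ± 0.156 and 1.27 ± 0.0855 CPM, SD, n = 3, edgeR adjusted p = 0.0351) and epiregulin (EREG, 9 ± 0.336 and 5.21 ± 1.73 CPM, adjusted p = 0.0388) were the others. AREG was lost in all 6 fits without 1 library and EREG in 5, with adjusted p up to 0.160 and 0.166.

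Of 19 genes read as output of the MAPK pathway, 1 was called. FOSL1, an AP-1 subunit, was at 179, 206 and 191 CPM in wild type and at 112, 116 and 113 CPM in KO2 (log2 fold change -0.76, SE 0.131, edgeR adjusted p = 0.00452), with the groups fully separate, as in every called gene. The phosphatase DUSP5 (74.5 ± 4.85 and 61.3 ± 2.52 CPM, SD, n = 3, edgeR adjusted p = 0.393) and MYC (305 ± 29.5 and 244 ± 11.4 CPM, adjusted p = 0.138) were called lower only in the 6-library fit (adjusted p = 0.0173 and 0.0166). That fit called 3 members of the list lower and 1 higher. Of 31 proliferation genes 0 were called, and in the 6-library fit 3 were higher and 3 lower. MKI67 was at 364 ± 9.88 and 408 ± 23.1 CPM (edgeR adjusted p = 0.706).

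Among 22 p53 targets, 2 were lower and 0 higher. TP53I3, a quinone oxidoreductase, was at 8.09, 9.75 and 9.14 CPM and at 4.53, 4.60 and 5.06 CPM (log2 fold change -0.92, SE 0.112, edgeR adjusted p = 0.000325). The exonuclease AEN was at 68.9 ± 3.38 and 53.5 ± 1.93 CPM (SD, n = 3, edgeR adjusted p = 0.0447) and was lost when any 1 library was left out (adjusted p up to 0.226). The list median was 0.02.

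Of 27 NRF2 targets and aldo-keto reductases, 1 was called higher and 2 lower, with a list median of -0.10 and 10 positive values. Beside AKR1C1, the glutathione peroxidase GPX2 fell (40.4 ± 0.987 and 27.0 ± 2.58 CPM, SD, n = 3, edgeR adjusted p = 0.0222), a call lost when any 1 library was left out (adjusted p up to 0.158). The efflux transporter ABCC3 rose (170 ± 9.55 and 232 ± 11.3 CPM, edgeR adjusted p = 0.0110, and 0.0714 without wild-type replicate 1). ABCC3 was lost in 4 of 6 fits without 1 library (edgeR adjusted p up to 0.0768). AKR1C3 was at 107 ± 7.30 and 62.2 ± 2.71 CPM (edgeR adjusted p = 0.0631) and the cystine transporter SLC7A11 at 313 ± 8.41 and 235 ± 14.6 CPM (adjusted p = 0.332). Both were called lower in the 6-library fit, which gave 3 higher and 8 lower members.

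Of 21 genes in the epithelial junction list, 3 were higher and 0 lower, and these were a protease and transcription factors rather than junction proteins. They were the membrane protease prostasin PRSS8 (2.63, 2.63 and 2.51 CPM against 7.20, 8.84 and 7.63 CPM, log2 fold change 1.61, SE 0.133, edgeR adjusted p = 1e-05), the transcription factor OVOL2 (log2 fold change 0.73, adjusted p = 0.0305, and 0.125 without wild-type replicate 1) and the epithelial ETS factor ELF3 (0.45, adjusted p = 0.00587). Of 26 S100 and squamous genes, S100A8 and the keratins KRT15 (24.5 ± 1.96 and 38.3 ± 0.348 CPM, SD, n = 3, adjusted p = 0.0243) and KRT16 (17.4 ± 0.741 and 28.1 ± 2.11 CPM, adjusted p = 0.00506) were higher, and S100A14 was lower (218 ± 28.6 and 158 ± 7.11 CPM, adjusted p = 0.0305). KRT15 and S100A14 were lost when any 1 library was left out (adjusted p up to 0.112 and 0.237), and OVOL2 in 4 of 6 such fits (edgeR adjusted p up to 0.143). The keratin values were fractional, as these genes share sequence with each other. S100A9, the partner of S100A8, was at 510 ± 19.8 and 676 ± 31.0 CPM (edgeR adjusted p = 0.477, and 0.000206 in the 6-library fit).

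Of 17 mesenchymal genes, the collagen genes COL5A1 and COL1A1 were higher and the transcription factor SNAI2 was lower. COL1A1 was at 8.27, 7.79 and 8.83 CPM and at 13.1, 13.4 and 14.8 CPM (log2 fold change 0.73, SE 0.112, edgeR adjusted p = 0.00194). SNAI2 was at 11.01 ± 0.351 and 7.42 ± 0.448 CPM (SD, n = 3, log2 fold change -0.57, edgeR adjusted p = 0.00777) and was lost without KO2 replicate 3 (adjusted p = 0.0627). YAP-TEAD targets had the lowest median of the lists, -0.12, with 0 higher and 3 lower of 21. These were AXL, the ecto-5′-nucleotidase NT5E (216 ± 6.28 and 141 ± 5.43 CPM, SD, n = 3, edgeR adjusted p = 0.0455) and the GTPase-activating protein DLC1 (13.5 ± 0.615 and 8.17 ± 1.37 CPM, adjusted p = 0.0269). NT5E was lost when any 1 library was left out and DLC1 in 5 of 6 such fits (adjusted p up to 0.192 and 0.159). YAP1 itself was at 255 ± 13.7 and 185 ± 8.71 CPM (edgeR adjusted p = 0.0767, and 0.000241 in the 6-library fit), and YAP1 and AMOTL1 lie in the chromosome 11 stretch described next.

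Of the TGF-beta, BMP and ID genes, 2 of 22 were higher and 2 lower. TGFBR3, a coreceptor that presents TGF-beta, was at 49.3 ± 1.29 and 80.3 ± 3.58 CPM (SD, n = 3, edgeR adjusted p = 0.0103, and 0.0580 without wild-type replicate 1), and the ligand BMP4 at 10.6 ± 1.32 and 16.7 ± 1.17 CPM (adjusted p = 0.00780, and 0.0520 without wild-type replicate 1). Among the lower genes was the activin subunit INHBA (25.1 ± 0.616 and 14.9 ± 0.520 CPM, edgeR adjusted p = 0.0103, and 0.0559 without wild-type replicate 1). INHBA was lost in 4 of 6 fits without 1 library (edgeR adjusted p up to 0.0610), and TGFBR3 also without KO2 replicate 2 (0.0526). In the heparan sulfate list, GPC4 and the syndecan SDC3 (51.1 ± 4.88 and 69.6 ± 2.42 CPM, adjusted p = 0.0447) were higher of 16. Of 26 integrin and basement membrane genes, ITGB8 was higher (11.98 ± 1.48 and 20.1 ± 2.75 CPM, adjusted p = 0.0473) and EMB lower. SDC3 and ITGB8 were lost when any 1 library was left out (adjusted p up to 0.223 and 0.169). Asparagine synthetase ASNS was the 1 called gene of 23 in the unfolded protein and ATF4 list (21.3 ± 1.38 and 14.3 ± 0.381 CPM, adjusted p = 0.0241, up to 0.106 without 1 library), and carbonic anhydrase CA12 the 1 of 25 in the hypoxia list (7.89, 9.68 and 7.87 CPM against 17.9, 19.3 and 18.4 CPM, edgeR adjusted p = 0.000195). The 25 cholesterol and fatty acid genes and the 10 genes of the APOBEC3 list gave 0 calls, with 5 and 1 called in the 6-library fit.

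Neighbouring genes with lower values were looked for along the chromosomes. In genome order, the median log2 fold change was taken in 1558 windows of 50 tested genes, moved 10 genes at a time, and a window was marked at 0.25 or more from the median of all genes, a threshold set after the values had been seen. The marked windows joined into 4 stretches with lower and 2 with higher values. The lower stretches were on chromosome 18 (26 to 80.2 Mb, 150 genes, median -0.33), chromosome 3 (75.7 to 112.6 Mb, 70 genes, -0.32), chromosome 11 (77.3 to 120.2 Mb, 200 genes, -0.29) and chromosome 2 (3.5 to 17.8 Mb, 50 genes, -0.29). These stretches held 470 of the tested genes (2.75%) and 82 of the 265 genes called lower (30.9%). They held 6 of the 473 genes called higher. In the 6-library fit, 202 of 420 genes inside were called lower. The stretches were chosen on the same fold changes, so these counts are a description with no test.

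**Figure D3:**
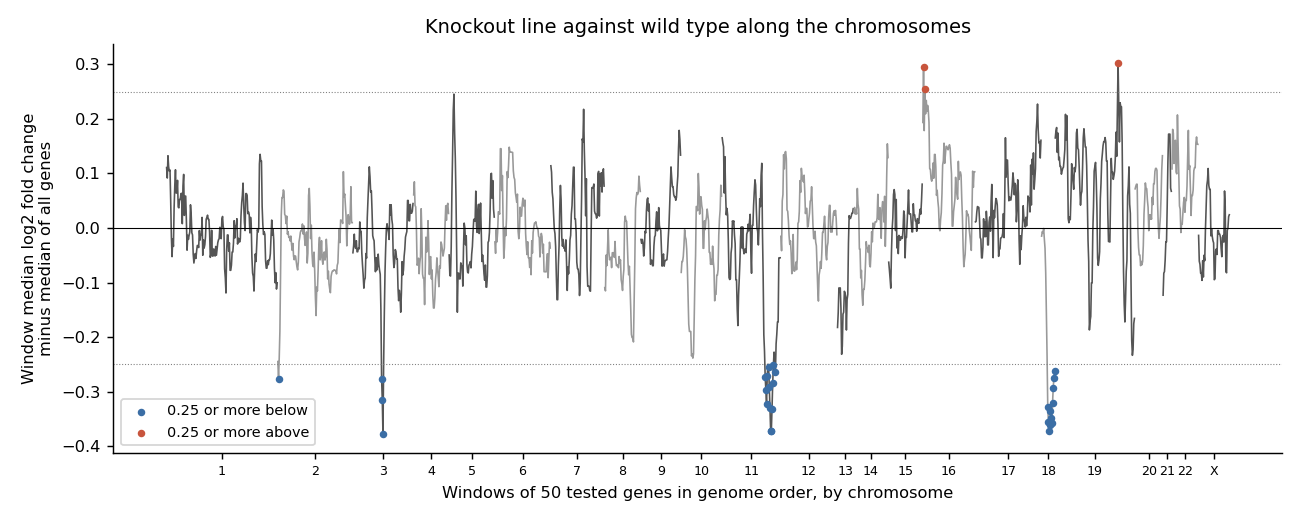
Median log2 fold change, KO2 minus wild type, of windows of 50 tested genes in genome order, minus the median of all genes, with chromosomes in alternating grey. Blue points mark windows at 0.25 or more below and red points those at 0.25 or more above; the blue points fall on chromosomes 2, 3, 11 and 18.

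The values that chose the stretches can be given by library. On chromosome 18 the median log2 level of the 150 genes, relative to the wild-type mean, was -0.30, -0.32 and -0.34 in the KO2 libraries and between -0.02 and 0.01 in the wild-type libraries. On chromosome 3 the KO2 values were -0.28, -0.33 and -0.29, against -0.05 to 0.03 in wild type. Chromosome 11 gave KO2 values of -0.25, -0.28 and -0.29 (mean -0.27). Chromosome 2 gave -0.22, -0.26 and -0.31 (mean -0.26). In each stretch all KO2 libraries were below all wild-type libraries. The stretches were chosen for low KO2 minus wild-type values, so this separation is partly built in. The DTC means were -0.20, 0.29, 0.12 and -0.51 for chromosomes 18, 3, 11 and 2, and the DTEC means 0.03, -0.03, 0.19 and -0.17. DNA copy number was not measured, and a change in copy number of the line and a change in transcription cannot be told apart here.

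**Figure D4:**
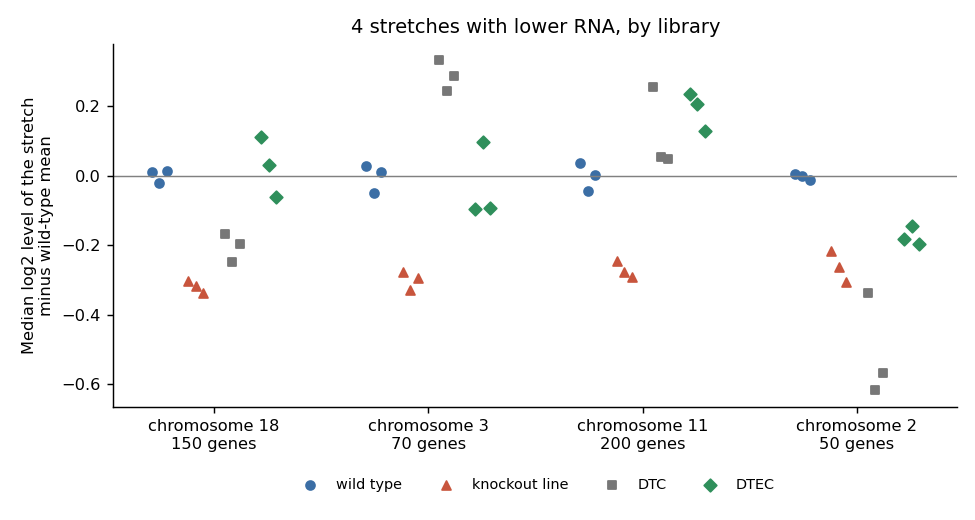
Median log2 level of the genes of the 4 lower stretches in each library, relative to the wild-type mean, for wild type (circles), KO2 (triangles), DTC (squares) and DTEC (diamonds). The KO2 libraries lie at -0.30 to -0.34 on chromosome 18, below all wild-type libraries.

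Single genes inside these stretches give the levels behind the medians. Those given here are among the 3 with the lowest adjusted p of their stretch and were picked after their values were seen. On chromosome 18, SERPINB5, the maspin gene, was at 51.4, 45.1 and 50.5 CPM in wild type and at 26.6, 28.8 and 25.9 CPM in KO2 (log2 fold change -0.86, SE 0.0925, edgeR adjusted p = 0.000127). On chromosome 3, CIP2A, an inhibitor of the phosphatase PP2A, was at 175, 159 and 170 CPM and at 117, 114 and 118 CPM (log2 fold change -0.53, SE 0.0903, edgeR adjusted p = 0.00403). On chromosome 11, the tripartite motif gene TRIM29 was at 114, 116 and 105 CPM and at 70.6, 67.0 and 69.7 CPM (log2 fold change -0.69, SE 0.0983, edgeR adjusted p = 0.00117). On chromosome 2, ornithine decarboxylase ODC1, the entry enzyme of polyamine synthesis, was at 560, 485 and 488 CPM and at 314, 312 and 302 CPM (log2 fold change -0.72, SE 0.110, edgeR adjusted p = 0.00186). In each of these genes the groups were fully separate, as in every called gene. Of the 14 genes with the largest fall, LPIN1 lay in the chromosome 2 stretch and MYH15 in the chromosome 3 stretch. Of 13 list members inside the stretches, 0 were called in the 12-library fit. The 2 higher stretches, on chromosome 16 (0.4 to 2.2 Mb, 70 genes, median 0.26) and chromosome 19 (48.3 to 49.5 Mb, 50 genes, median 0.29), also differed between wild-type libraries. Wild-type replicate 1 was at -0.26 and -0.11 there and replicate 2 at 0.18 and 0.07, and the lowest KO2 library was at 0.18 and 0.07. The part of wild-type replicate 1 in these medians was not tested.

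A few genes were near or below detection in 1 group. Of the called genes, 8 had 3 counts or fewer in every wild-type library and 10 in every KO2 library. Beside the IFITM genes and TNF, METTL7A was at least 4.33-fold higher in KO2 (mean 0.401 CPM), the cytochrome P450 gene CYP4B1 at least 3.40-fold higher (0.314 CPM) and SCUBE3 at least 2.32-fold higher (0.215 CPM). The METTL7A call held with each library left out, whereas CYP4B1 and SCUBE3 were each lost in 4 of 6 such fits (edgeR adjusted p = 0.0953 and 0.0991 without wild-type replicate 1). In the other direction, the protocadherin PCDHAC1 was at least 5.22-fold lower in KO2, from 0.496 CPM in wild type. Its wild-type counts were 8, 8 and 34, and without wild-type replicate 3 the bound was 2.67-fold and the call was lost (edgeR adjusted p = 0.154), as it also was without KO2 replicate 2 or 3. LINC02474 was at least 3.84-fold lower, from 0.365 CPM. ZNF311 (at least 3.24-fold), the neuroserpin gene SERPINI1 (3.06-fold) and ARMCX2 (3.06-fold) were also lower. Without wild-type replicate 1 none of these 4 was called (edgeR adjusted p = 0.103, 0.106, 0.125 and 0.158), and each was lost in 4 or 5 of the 6 fits without 1 library. These bounds set the observed mean of the other group against a floor of 3 counts per library. They do not cover the counting error of that mean or the spread between libraries.

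The levels of the leading genes in erlotinib-treated wild-type cells differed from gene to gene. These comparisons use the same 3 wild-type libraries as the one with KO2, so the values are given side by side. RARRES1, at 161 ± 2.07 CPM in KO2, was at 159 ± 16.6 CPM in DTC and 240 ± 38.4 CPM in DTEC (SD, n = 3). DMBT1, at 33.8 ± 0.717 CPM in KO2, was at 0.162 ± 0.0909 CPM in DTC and 63.3 ± 25.9 CPM in DTEC. GPC4, at 28.5 ± 1.88 CPM in KO2, was at 29.7 ± 3.87 CPM in DTC and 6.45 ± 1.01 CPM in DTEC, where wild type was at 6.98 ± 0.647 CPM. RARRES1 was thus high in both treated groups, DMBT1 in DTEC and GPC4 in DTC.

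C1S, at 35.8 ± 1.36 CPM in KO2, reached 181 ± 20.1 CPM in DTC and 71.5 ± 25.3 CPM in DTEC. BPIFB1, at 16.3 ± 1.47 CPM in KO2, was at 19.7 ± 2.22 and 21.9 ± 4.45 CPM, and OAS1, at 2.97 ± 0.351 CPM, was at 12.7 ± 1.603 and 4.13 ± 1.31 CPM. Of the lower genes, AXL was at 21.4 ± 0.354 CPM in KO2, 21.98 ± 3.49 CPM in DTC and 56.4 ± 2.69 CPM in DTEC, and AKR1C1 at 51.9 ± 2.70, 49.7 ± 8.05 and 180 ± 4.15 CPM. EMB, at 5.67 ± 0.639 CPM in KO2, was at 20.1 ± 5.27 and 24.9 ± 1.35 CPM, above or near its wild-type level of 17.4 ± 0.225 CPM. TDP1 itself was at 13.96 ± 1.55 CPM in DTC and 26.6 ± 1.54 CPM in DTEC.

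**Figure D5:**
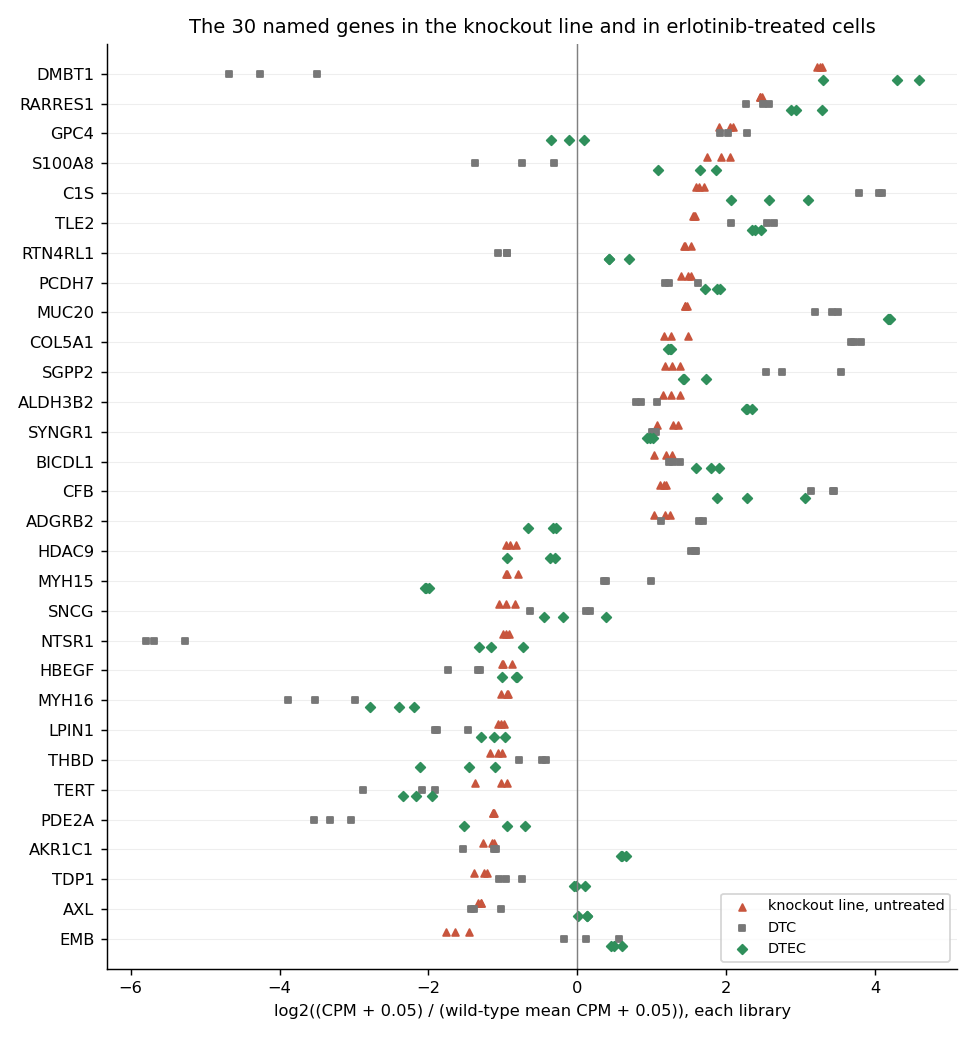
Level of the 30 named genes relative to the wild-type mean (log2 ratio of CPM after adding 0.05) in each library of KO2 (triangles), DTC (squares) and DTEC (diamonds), all set against the same 3 wild-type libraries. RARRES1 lies to the right of 0 in all 3 groups, and EMB lies far to the left only in KO2.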

How the data were processed

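Polyadenylated RNA of 12 PC9 libraries was measured, and the 3 KO2 and 3 wild-type untreated libraries were compared. The authors deposited 1 table of estimated counts per Ensembl gene (expected counts, unscaled), and 0 of its columns belonged to other samples. The submitters' processing notes name RSEM 1.3.1, Bowtie2 2.5.2, DESeq2 1.40.2 and GRCh38, without the role or order of each. RSEM-type counts split reads that match several genes, so near-identical genes have uncertain levels. The library kit keeps strand. The annotation release is not given in the sources used here, and coordinates are those of GENCODE 29 (GRCh38) for the same identifier.

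Counts were rounded and fitted in R 4.3.3 with edgeR 4.0.16 (filterByExpr, TMM, 1 mean per group over all 12 libraries, robust quasi-likelihood F tests). This left 17115 genes, with Benjamini-Hochberg adjustment over all of them and a call at an adjusted p under 0.05. Single values per library were compared by exact permutation tests. CPM values use TMM-scaled totals, and the summed cell-type markers use plain library totals. With 29959579 to 38373679 counts per library, 3 counts equal about 0.0924 CPM in wild type and 0.0951 CPM in KO2. Fold bounds against this floor use the observed mean of the other group and leave out its counting error.

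Genes were named by a rule: the 16 higher and 14 lower genes with the largest log2 fold change among called genes with a mean of at least 10 CPM, a symbol and no overlap between groups; TDP1, TOP1, TDP2, TOP1MT and EGFR; up to 3 called genes per list; tested genes within 1 Mb of TDP1; and up to 5 genes at the floor in each group. Some genes that this rule selects are not reported here. Other list members and the genes of the chromosome stretches were named after their values were seen. The comparison, the 24 lists, written from general knowledge, and the rule were chosen with earlier results of these data known. Alternatives were other scalings, filters, fits and tools (DESeq2 1.42.0, limma 3.58.1), a replicate block, and each library left out. The fit was tested on simulated counts. Figures were drawn with matplotlib 3.10.9.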

Additional observations from a re-analysis of the deposited data

How the results depend on the processing

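The direction and call of TDP1 were the same under all 17 alternatives (-1.32 to -1.21). The number of called genes (738) was 2656 in the 6 untreated libraries alone, 2957 in these without wild-type replicate 1 (chosen after seeing the data), 1147 without a count filter, 1113 with DESeq2 and 321 to 426 with 1 library left out. It was 858, 766 and 711 under scaling by total counts, upper quartile and RLE, 801 with at least 1 CPM in 3 libraries and 613 with limma-voom. The called list members (66) numbered 166 in the 6 libraries alone, 190 in these without wild-type replicate 1, and 31 to 40 with 1 library left out. The called genes at the floor in 1 group (18) numbered 81 without a count filter, 8 with limma-voom and 7 to 16 with 1 library left out. The fit of 6 libraries rests on a smaller spread (8.24% against 14.6%), and a fit without 1 library on fewer samples.

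With the replicate number as a block, 887 genes and 73 list members were called, and in the 6 libraries alone with the block 3406 genes and 200 list members. The deviations of same-numbered libraries had correlations of 0.130, 0.0800 and 0.0562, each library correlated best with its own number, and the labels name nothing that the numbers share, so the block is given here alone.

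Of 1389 values of 84 named genes under alternatives, 1207 kept direction and side of the threshold, 176 lost the call, 6 gained one and 0 changed sign. The change of GPC4 in DTEC turned to 0.0533 with total counts, and that of TDP1 in DTEC lay between -0.00513 and 0.0853 with 1 library left out. With 1 library left out, some genes with few counts lost their call, such as TNF in 5 of 6 fits and IFITM1 in 2, while METTL7A kept it in all. Genes with many counts, such as NT5E and SDC3, also lost their call, in all 6 fits.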
